A study of Mus musculus with 12 samples.

Results

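The chemokine ligand genes are the genes whose array symbol starts with Ccl, Cxcl, Xcl or Cx3cl followed by a digit. They were taken from the probes that the platform annotation ties to a single symbol, and each gene was represented by the probe with the highest mean. This gave 35 genes from 38 probes, out of 18069 genes with a single symbol on an array of 36227 probes. All 35 were tested, among 17611 genes and 35401 probes that had at least 2 values in every group. The genes comprised 20 CC ligands, 13 CXC ligands and 2 ligands of other classes, Xcl1 and Cx3cl1.

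Balb/c mice received DMA by gavage at 30 mg per kg of body weight, or the vehicle DMSO, and polyA RNA of the heart was measured on 1-colour Cy5 arrays. The 4 groups were hearts 24 h after DMA, hearts 24 h after DMSO, hearts 48 h after DMA and hearts 48 h after DMSO, with 3 arrays each. The sources used here expand DMA nowhere and give neither the age, the sex nor the number of the animals. The arrays are numbered as biological replicates, but per the design text RNA was extracted from pooled hearts, and the p-values therefore measure the spread between these arrays, which may be technical. All levels below are the deposited log2 values, listed in the order of replicates 1, 2 and 3, and differences are DMA minus DMSO on the log2 scale.

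Chemokines are small secreted proteins that bind G protein-coupled receptors on leukocytes and direct their movement, and their classes are named after the arrangement of conserved cysteines. Several CC ligands, among them Ccl2, Ccl7 and Ccl12, attract monocytes through Ccr2, while the CXC ligands Cxcl1, Cxcl2, Cxcl3 and Cxcl5 attract neutrophils through Cxcr2, and Cxcl9, Cxcl10 and Cxcl11 are induced by interferon gamma and attract activated T cells through Cxcr3. In the heart, macrophages, fibroblasts and endothelial cells are known sources, and Ccl2 is known for drawing monocytes into injured myocardium. Many of the inflammatory members are transcribed under NF-kappaB, and others (Cxcl12, Ccl19, Ccl21) are made constitutively and guide the homing of leukocytes. Whole heart tissue was measured, so fewer cells of a type and less RNA per cell cannot be told apart.

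The mouse genes lie mostly in clusters. In the RefSeq annotation Ccl2, Ccl7, Ccl11, Ccl12, Ccl8 and Ccl1 follow one another on chromosome 11 with 0 protein-coding genes between them, and Ccl5, Ccl9, Ccl6, Ccl3 and Ccl4 do the same after 25 further protein-coding genes. On chromosome 5, Cxcl3, Cxcl15, Cxcl1 and Cxcl2 are direct neighbours, and 1 protein-coding gene lies between Cxcl9 and Cxcl10. Ccl22, Cx3cl1 and Ccl17 are neighbours on chromosome 8. The annotated spans of Ccl3 and Ccl4 overlap, so their probe signals could share transcripts, and Ccl21b, Ccl27a and Ccl19 have close copies in the mouse genome that a probe could also read.

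Promoters of 4 members are shown, chosen after the values were seen. Ccl6 and Ccl8 were highest on the replicate 1 arrays of both treatments at 24 h. For Cxcl3 and Cxcl10 the DMA arrays were the higher ones in every pair measured, as they were for Xcl1, whose promoter is not shown. The sequences run 5′ to 3′ from 250 bases before the transcript start to 50 bases after it (RefSeq, build GRCm38.p6). Capitals mark matches to the NF-kappaB consensus, to GAAANNGAAA (the core of the interferon-stimulated response element) or to TATAAA, searched on both strands.
Ccl6 (chr11:83593038-83593337, minus strand): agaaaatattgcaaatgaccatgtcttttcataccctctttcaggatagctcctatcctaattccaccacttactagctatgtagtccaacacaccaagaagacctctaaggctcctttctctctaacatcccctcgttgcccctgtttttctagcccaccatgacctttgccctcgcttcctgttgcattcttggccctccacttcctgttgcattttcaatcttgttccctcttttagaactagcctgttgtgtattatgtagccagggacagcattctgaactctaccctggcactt
Ccl8 (chr11:82114935-82115234, plus strand): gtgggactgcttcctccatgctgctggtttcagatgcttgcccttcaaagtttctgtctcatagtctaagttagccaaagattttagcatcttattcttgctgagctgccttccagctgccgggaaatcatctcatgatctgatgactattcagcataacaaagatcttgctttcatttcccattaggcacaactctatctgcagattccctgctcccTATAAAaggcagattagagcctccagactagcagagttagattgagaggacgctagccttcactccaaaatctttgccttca
Cxcl3 (chr5:90785851-90786150, plus strand): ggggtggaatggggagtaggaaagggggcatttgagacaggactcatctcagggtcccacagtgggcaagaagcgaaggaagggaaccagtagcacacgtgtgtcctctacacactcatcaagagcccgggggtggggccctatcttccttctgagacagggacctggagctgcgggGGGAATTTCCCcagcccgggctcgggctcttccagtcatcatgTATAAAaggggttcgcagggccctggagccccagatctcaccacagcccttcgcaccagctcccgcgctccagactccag
Cxcl10 (chr5:92348840-92349139, minus strand): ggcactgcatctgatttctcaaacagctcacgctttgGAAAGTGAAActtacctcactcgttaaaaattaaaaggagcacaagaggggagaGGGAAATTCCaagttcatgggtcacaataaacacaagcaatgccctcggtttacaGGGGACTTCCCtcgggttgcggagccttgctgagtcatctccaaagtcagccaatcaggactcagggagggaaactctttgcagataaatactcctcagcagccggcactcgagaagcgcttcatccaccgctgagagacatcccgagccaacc
Among the 25 members with a promoter in the RefSeq table, 8 held the NF-kappaB consensus (Ccl1, Ccl9, Ccl20, Ccl27a, Cxcl1, Cxcl2, Cxcl3 and Cxcl10), against 8.46% of all 32851 promoters of the same length. GAAANNGAAA was found in 3 members (Ccl19, Cxcl10 and Cxcl14), against 3.44% of all promoters, and TATAAA in 9, against 13.6%. Cxcl10 held both the NF-kappaB consensus and GAAANNGAAA, Cxcl3 held the NF-kappaB consensus and TATAAA, Ccl8 held TATAAA alone, and Ccl6 held none of these letters in this window. In Cxcl3 the capitals before the TATAAA box span overlapping matches to the NF-kappaB consensus. These matches describe the sequence only.

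Array medians were nearly equal within each time, with 6.03 to 6.04 at 24 h and 6.35 to 6.36 at 48 h. The table may have been scaled separately at each time, so levels were set against the median of their own array. DMA 24 h replicate 3 stood apart, with a correlation of 0.742 to the median of the other arrays of its time over all probes, against 0.927 to 0.963 for the other 11 arrays. On that array the members lay 0.73 below the median of the others (median over members), and several 24 h differences are also given without it. Ccl5, Ccl7 and Ccl9 were low on it as well, and their 24 h differences are not given without it. Arrays lacked 322 to 3997 probe values each, and of the 18 missing values among the members 9 fell on the DMSO replicate 1 arrays. In 22 members all 12 values were present. Of 18 cardiomyocyte markers, 17 had a probe and 14 of these lay above the array median, among them Ttn and Ckm. That count rests partly on the array that stood apart. Tnni3, Myl2, Pln, Mb and Fabp3 had a value on DMA 24 h replicate 3 alone, and Actc1 and Atp2a2 had none on any array. Precision is limited by the 3 arrays in a group: the half-width of the 95% interval of a member's difference had a median of 1.17 at 24 h and 1.16 at 48 h.

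Chemokine ligand genes above the array median in heart were 23 of 35 (65.7%), close to the 59.8% of all genes represented by their brightest probe (49.3% of all probes tested). At 24 h 24 members and at 48 h 23 members were above it, and 15 were above it on every array that gave a value. The number above the median on a single array ran between 19, on DMA 24 h replicate 3, and 25. Ccl6, Cxcl17 and Ccl12 lay furthest above, by 5.43, 5.16 and 5.03 on average, and 13 members passed the array's upper quartile. Ccl21b and Ccl28 were below the median on every array. Brightness differs between probes, so these values place each probe on its array and do not order the genes by abundance.

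**Figure D1:**
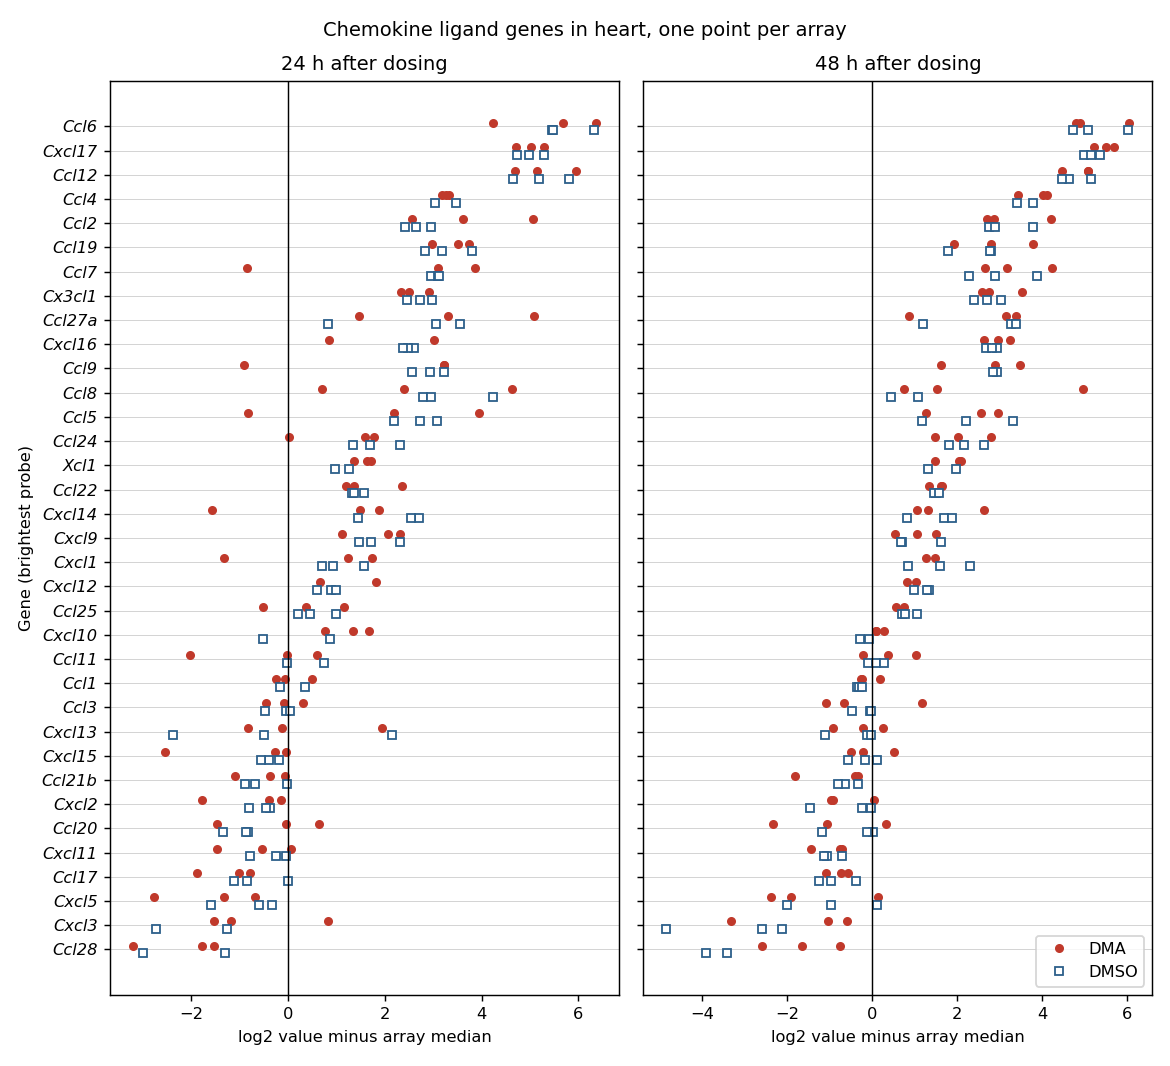
Log2 value minus the array median (x axis) for the 35 chemokine ligand genes (y axis, in order of mean level) at 24 h (left) and 48 h (right), with filled circles for DMA arrays and open squares for DMSO arrays. The 3 highest probes, Ccl6, Cxcl17 and Ccl12, sit 5.03 to 5.43 above the median on average, and several members (Ccl5, Ccl7, Ccl9, Cxcl14) have 1 isolated low DMA point at 24 h, which is replicate 3.

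The ligands of the monocyte receptor Ccr2 were all above the median. Ccl2, the main monocyte attractant, had 24 h values of 8.60, 9.65 and 11.11 in DMA hearts and 8.44, 8.67 and 9.0 in DMSO hearts. At 48 h it had 9.22, 10.57 and 9.06 in DMA hearts and 9.10, 10.15 and 9.25 in DMSO hearts. DMA replicate 3 was the highest 24 h array, whereas at 48 h replicate 2 was the highest in both treatments. Ccl7, a second Ccr2 ligand encoded beside Ccl2, had 9.12, 9.90 and 5.19 in DMA hearts and 8.99, 9.12 and 9.16 in DMSO hearts at 24 h, and 9.02, 10.60 and 9.54 in DMA hearts and 8.63, 10.24 and 9.25 in DMSO hearts at 48 h. Its DMA 24 h replicate 3 value was below the array median, unlike its other values. Ccl12, a mouse Ccr2 ligand, had 10.72, 11.98 and 11.19 in DMA hearts and 10.68, 11.22 and 11.83 in DMSO hearts at 24 h, and 10.83, 11.44 and 11.44 in DMA hearts and 10.98, 10.83 and 11.51 in DMSO hearts at 48 h. DMA and DMSO values of Ccl12 were interleaved at both times. Ccl8, which in the mouse acts on Ccr8, had 10.66, 8.43 and 6.74 in DMA hearts and 10.26, 8.82 and 8.99 in DMSO hearts at 24 h, and 7.12, 11.31 and 7.88 in DMA hearts and 6.80, no value and 7.43 in DMSO hearts at 48 h. The highest Ccl8 arrays were replicate 1 of both treatments at 24 h and DMA replicate 2 at 48 h, where the DMSO array of that number gave no value.

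The inflammatory ligands encoded around Ccl5 were above the median except Ccl3. Ccl6, a Ccr1 ligand of rodents expressed in myeloid cells, had 12.40, 11.71 and 10.28 in DMA hearts and 12.35, 11.49 and 11.50 in DMSO hearts at 24 h, and 11.16, 12.41 and 11.26 in DMA hearts and 11.07, 12.37 and 11.43 in DMSO hearts at 48 h. It lay furthest above the array median of all members, and at 48 h both replicate 2 arrays stood about 1 log2 unit above the rest. Ccl9, another rodent Ccr1 ligand, had 9.25, 9.25 and 5.14 in DMA hearts and 9.24, 8.58 and 8.96 in DMSO hearts at 24 h, and 9.25, 9.85 and 7.98 in DMA hearts and no value, 9.29 and 9.20 in DMSO hearts at 48 h. Ccl4, an inflammatory ligand of macrophages and lymphocytes, had 9.29, 9.20 and 9.38 in DMA hearts and no value, 9.07 and 9.51 in DMSO hearts at 24 h, and 10.47, 9.78 and 10.37 in DMA hearts and no value, 9.76 and 10.14 in DMSO hearts at 48 h. Ccl4 varied little between the arrays that gave a value. Ccl5, a ligand of Ccr1 and Ccr3 made by T and NK cells among others, had 9.97, 8.22 and 5.20 in DMA hearts and 9.10, 8.76 and 8.22 in DMSO hearts at 24 h, and 7.62, 9.32 and 8.92 in DMA hearts and 7.53, 9.66 and 8.55 in DMSO hearts at 48 h. Replicate 1 was the highest array of each treatment at 24 h and the lowest at 48 h. Ccl3, an inflammatory ligand of Ccr1, lay near the median, at -0.15 on average.

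Of the eosinophil and Ccr4 ligands, Ccl24 and Ccl22 were clearly above the median and Ccl11 was at it. Ccl24 (eotaxin-2), a Ccr3 ligand, had 7.62, 7.80 and 6.05 in DMA hearts and 7.36, 8.34 and 7.73 in DMSO hearts at 24 h, and 7.83, 8.39 and 9.16 in DMA hearts and 8.16, 8.52 and 8.98 in DMSO hearts at 48 h. Ccl11 (eotaxin), which also binds Ccr3, had 6.01, 6.63 and 4.02 in DMA hearts and no value, 6.78 and 6.02 in DMSO hearts at 24 h, and 6.74, 6.15 and 7.40 in DMA hearts and 6.45, 6.26 and 6.64 in DMSO hearts at 48 h. For both genes DMA replicate 3 was the lowest 24 h array, while at 48 h it was the highest. Ccl22, a Ccr4 ligand of macrophages and dendritic cells, had 7.40, 7.23 and 8.40 in DMA hearts and 7.34, 7.39 and 7.60 in DMSO hearts at 24 h, and 8.0, 7.69 and 7.98 in DMA hearts and 7.86, 7.81 and 7.93 in DMSO hearts at 48 h. Ccl17, its neighbour on chromosome 8 and likewise a Ccr4 ligand, lay at -0.89 relative to the median on average.

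Among the CC ligands of homing and barrier tissues, Ccl19, Ccl25 and Ccl27a were above the median. Ccl19, a Ccr7 ligand of lymphoid stroma, had 9.55, 8.99 and 9.79 in DMA hearts and 8.85, 9.22 and 9.85 in DMSO hearts at 24 h, and 8.30, 9.16 and 10.13 in DMA hearts and 8.14, 9.16 and 9.13 in DMSO hearts at 48 h. Ccl25, a Ccr9 ligand known from thymus and small intestine, had 6.40, 7.18 and 5.53 in DMA hearts and 6.24, 7.01 and 6.49 in DMSO hearts at 24 h, and 6.93, 7.10 and no value in DMA hearts and 7.06, 7.12 and 7.40 in DMSO hearts at 48 h. DMA and DMSO arrays of Ccl19 and Ccl25 overlapped at both times. Ccl27a, a Ccr10 ligand of skin, had 7.49, 9.34 and 11.13 in DMA hearts and 6.86, 9.59 and 9.08 in DMSO hearts at 24 h, and 9.51, 7.24 and 9.75 in DMA hearts and 9.62, 7.55 and 9.73 in DMSO hearts at 48 h. Replicate 1 was the lowest Ccl27a array of each treatment at 24 h and replicate 2 at 48 h. The second Ccl27a probe was dimmer, between 5.35 and 6.73, and at neither time were these replicates its lowest in both treatments. Ccl1, a Ccr8 ligand of activated T cells, lay at -0.08, Ccl20, the Ccr6 ligand, at -0.69, and Ccl28, a mucosal Ccr10 ligand, at -2.32 relative to the median.

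Neutrophil-attracting CXC ligands were mostly below the array median, with Cxcl1 the exception. Cxcl1 had 7.77, 7.26 and 4.72 in DMA hearts and 7.60, 6.95 and 6.73 in DMSO hearts at 24 h, and no value, 7.84 and 7.62 in DMA hearts and 7.18, 8.65 and 7.95 in DMSO hearts at 48 h. DMA 24 h replicate 3 was its only value under the median. Cxcl2, Cxcl3, Cxcl5 and Cxcl15 lay at -0.63, -1.85, -1.19 and -0.40 relative to the median. Of the interferon-inducible ligands, Cxcl9 had 8.34, 8.09 and 7.16 in DMA hearts and 7.50, 8.34 and 7.75 in DMSO hearts at 24 h, and 7.41, 7.86 and 6.90 in DMA hearts and 7.04, 7.97 and 7.04 in DMSO hearts at 48 h. Its groups overlapped at both times. Cxcl11, annotated as a transcribed pseudogene in the C57BL/6J assembly, lay at -0.74 relative to the median. Cxcl10 is described with the DMA comparison.

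The remaining CXC ligands are given here together with Cx3cl1 and Xcl1. Cxcl12, the constitutive Cxcr4 ligand of stromal cells, had 6.68, no value and 7.86 in DMA hearts and 6.91, 6.64 and 7.03 in DMSO hearts at 24 h, and 7.19, no value and 7.39 in DMA hearts and 7.69, 7.35 and 7.65 in DMSO hearts at 48 h. Cxcl14, a ligand of fibroblasts and epithelia, had 7.40, 7.67 and 8.99 in DMA hearts and 7.17, 8.04 and 8.23 in DMSO hearts at 48 h. Cxcl16, made as a transmembrane protein that binds Cxcr6, had no value, 9.05 and 6.89 in DMA hearts and 8.63, 8.52 and 8.40 in DMSO hearts at 24 h, and 8.99, 9.59 and 9.32 in DMA hearts and 9.03, 9.28 and 9.17 in DMSO hearts at 48 h. Cxcl12 and Cxcl16 were above the median on every array that gave a value, and Cxcl14 on all arrays but DMA 24 h replicate 3. Cxcl17, known from mucosal tissues, had 11.31, 10.74 and 11.05 in DMA hearts and 11.32, 10.76 and 11.02 in DMSO hearts at 24 h. It was far above the median on all 12 arrays and had the smallest differences within pairs at 24 h, with -0.01, -0.02 and 0.03. Cxcl13, the B cell attractant that binds Cxcr5, lay at -0.15 relative to the median. Cx3cl1, a membrane-bound ligand of Cx3cr1 on monocytes, had 8.53, 8.37 and 8.96 in DMA hearts and 8.48, 9.0 and 8.76 in DMSO hearts at 24 h, and 8.95, 9.10 and 9.89 in DMA hearts and 8.76, 9.06 and 9.39 in DMSO hearts at 48 h. Its groups overlapped at both times. Xcl1, the ligand of Xcr1 on cross-presenting dendritic cells, had 7.84, 8.45 and 8.40 in DMA hearts and 7.66, no value and 8.33 in DMSO hearts at 48 h.

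The 24 h arrays address whether DMA altered gene expression in the heart a day after dosing. No chemokine ligand gene differed from DMSO at an adjusted p under 0.05 (limma, Benjamini-Hochberg over 35401 probes). The count of probes called over the whole array was 0 as well (0.0% called), and 1071 probes (3.03%) had an unadjusted p under 0.05, against 0 of the 35 members (2.82% of all genes). The members' differences ran between -1.64 and 1.37, with 14 above 0 and 21 below, while 55.2% of all genes were above 0. Their median was -0.03, against 0.09 over all genes. That split rested on DMA replicate 3: without it 21 members were above 0 and 14 below, with a median of 0.21, against 50.2% of all genes above 0 and a median of 0.00236. The members' median within same-numbered pairs was 0.09, 0.14 and -0.59.

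Cxcl10, the interferon-inducible Cxcr3 ligand, had the smallest p of the members at 24 h. It had 6.79, 7.70 and 7.39 in DMA hearts and no value, 5.52 and 6.91 in DMSO hearts, a mean of 7.29 ± 0.46 (SD, n = 3) with DMA and of 6.21 ± 0.98 (SD, n = 2) with DMSO. The lowest DMA array lay just under the higher DMSO array, so the groups overlapped. The difference was 1.08 (SE 0.49), unadjusted p = 0.0537 and limma adjusted p = 0.871, and it was 0.38 without DMSO replicate 2 and 1.78 without DMSO replicate 3. Cxcl14 had 7.51, 7.90 and 4.47 in DMA hearts and 7.48, 8.74 and 8.57 in DMSO hearts. Its difference of -1.64 (SE 0.82) came to -0.56 without DMA replicate 3, the single low array. The Ccl2 difference was 1.08 (SE 0.62), and it was above 0 in 3 of 3 pairs, by 0.16, 0.98 and 2.11. It came to 0.42 without DMA replicate 3 and 1.68 without DMA replicate 1. Ccl2 was the only one of the 26 members with 3 complete pairs to be higher in all of them, against 12.4% of all genes.

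With arrays weighted by their quality in limma the 24 h differences were 0.03 for Ccl2, 0.53 for Cxcl10, 0.57 for Cxcl3, -0.84 for Cxcl14, -0.23 for Ccl17 and -0.18 for Ccl24. With replicate number as a block, Ccl2 (unadjusted p = 0.0371) and Cxcl3 (0.0182) were the members with an unadjusted p under 0.05 at 24 h, and the adjusted p in limma was 0.693 for both. These were 2 of 35 members, and in the same fit 1540 of 35401 probes had an unadjusted p under 0.05.

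Lower in 3 of 3 pairs were Ccl17 and Cxcl5, 2 of 26, against 9.48% of all genes. Ccl17, the thymus and activation regulated Ccr4 ligand, had 5.02, 5.25 and 4.16 in DMA hearts and 5.17, 6.04 and 4.91 in DMSO hearts. The pair differences were -0.15, -0.79 and -0.75, and the mean difference of -0.56 (SE 0.43) came to -0.24 without DMA replicate 3 and -0.23 without DMSO replicate 2. Ccl17 was below the array median on most arrays. Ccl24 differed by -0.65 (SE 0.53), with DMA replicate 3 the lowest array, and by -0.10 without it or -0.39 without DMSO replicate 2. Xcl1 had 7.74, 7.65 and 7.41 in DMA hearts and no value, 7.30 and 7.0 in DMSO hearts. It was the only member whose 24 h groups did not overlap, 1 of 35 higher and 0 lower, against 4.42% and 3.29% of all genes. The Xcl1 difference was 0.45 (SE 0.40), or 0.30 without DMSO replicate 3. Cxcl3 had 4.85, 4.5 and 6.87 in DMA hearts and no value, 3.30 and 4.77 in DMSO hearts, all but 1 of them under the array median. DMA replicate 3 was its highest array, and its difference of 1.37 (SE 1.07) was 0.64 without that array, 0.63 without DMSO replicate 2 and 2.11 without DMSO replicate 3.

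At 48 h the members again gave 0 calls, and limma's adjusted p was 1.00 for each. Over the array 0 probes were called (0.0%) and 494 (1.4%) had an unadjusted p under 0.05. Of the members 1 did, Ccl28, against 1.02% of all genes. With replicate number as a block it was Cxcl3 instead, and the unadjusted p of Ccl28 in limma was 0.0669. In that block fit 744 of 35401 probes had an unadjusted p under 0.05. The differences ran between -0.59 and 2.00, with 24 members above 0 and 11 below, against 51.4% of all genes above 0. The median was 0.12, against 0.01 over all genes, and within same-numbered pairs it was 0.16, 0.04 and 0.11. Without DMSO replicate 1 the median was -0.05, and without DMSO replicate 3 it was 0.22. Ccl28 and Cxcl10 were the members whose groups did not overlap, 2 of 35 higher and 0 lower, against 3.95% and 2.33% of all genes.

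Ccl28, the mucosal Ccr10 ligand, had 48 h values of 4.71, 5.6 and 3.77 in DMA hearts and no value, 2.93 and 2.45 in DMSO hearts. All of them lay below the array median. Its difference of 2.00 (SE 0.74) had a 95% interval of 0.34 to 3.66 and an unadjusted p of 0.0234 in limma, with an adjusted p of 1.00. At 24 h the same probe had 4.24, 2.83 and 4.51 in DMA hearts and 4.73, no value and 3.03 in DMSO hearts, and there the groups overlapped. Cxcl10 had 6.44, 6.63 and 6.45 in DMA hearts and 6.29, no value and 6.06 in DMSO hearts at 48 h, a difference of 0.33 (SE 0.49). These values lay close to the array median. Over both times DMA was the higher array in all 4 pairs with both values of Cxcl10, and likewise in all 4 of Xcl1. These genes were picked from all members after the values were seen. The share of all genes with DMA higher in every pair over both times was not counted.

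Cxcl3, a neutrophil attractant that binds Cxcr2, had nearly equal differences within the 3 pairs at 48 h. It had 3.04, 5.76 and 5.33 in DMA hearts and 1.51, 4.22 and 3.77 in DMSO hearts. All 6 values were below the array median, and replicate 1 was low in both treatments. Within pairs DMA was higher by 1.54, 1.53 and 1.56, almost the same amount each time. The mean difference was 1.54 (SE 0.96), with an unadjusted p of 0.137; with replicate number as a block the SE was 0.33 and the unadjusted p was 0.00363, and limma's adjusted p was 1.00 in both fits. Without single arrays the Cxcl3 difference ranged between 0.71, without DMSO replicate 1, and 2.38, without DMA replicate 1. At 24 h the 2 complete Cxcl3 pairs also had DMA higher, so DMA was the higher array in 5 of 5 pairs. This count too was picked after the values were seen, and no share over all genes was counted for it.

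Among the 26 members with 3 complete pairs at 48 h, 6 had DMA higher in each pair (Ccl1, Ccl7, Ccl19, Cx3cl1, Cxcl3 and Cxcl17), against 15.1% of all genes, and 0 had it lower, against 9.77%. Ccl7 was higher by 0.39, 0.36 and 0.29. Cxcl17 had 11.59, 11.86 and 12.06 in DMA hearts and 11.33, 11.71 and 11.50 in DMSO hearts and a difference of 0.33 (SE 0.32), about as large as its standard error. Cx3cl1 was higher by 0.19, 0.04 and 0.50. Differences of this size were within the spread between arrays of a group. Ccl19 was higher by 0.16, 0.000196 and 1.00, and its difference of 0.39 (SE 0.51) was -0.08 without DMA replicate 3, 0.84 without DMA replicate 1 and 0.05 without DMSO replicate 1. The Ccl8 difference of 1.66 (SE 1.29) rested on DMA replicate 2, for which no DMSO partner value exists, and was 0.38 without it. Ccl20, a Ccr6 ligand, had 5.30, 6.68 and 4.03 in DMA hearts and 6.37, 6.24 and 5.17 in DMSO hearts. Its difference of -0.59 (SE 0.69) was the lowest of the members, and it was 0.06 without DMA replicate 3, -1.26 without DMA replicate 2 and -0.97 without DMSO replicate 3. With array weights the differences were 0.16 for Ccl19 and -0.07 for Ccl20, and with the trend along probe numbers subtracted they were 0.18 for Cxcl17 and -0.29 for Ccl20.

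**Figure D2:**
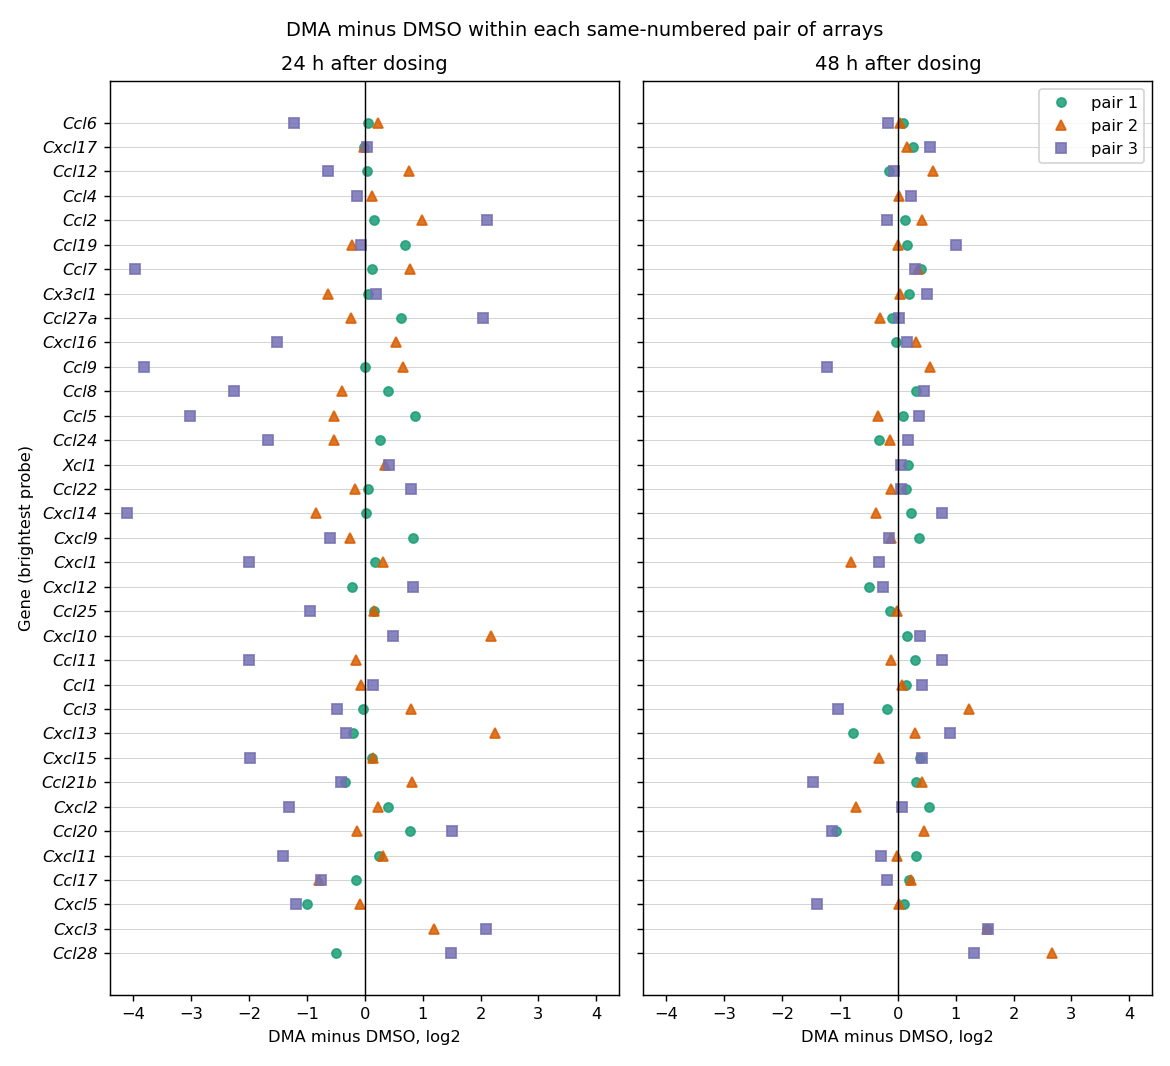
DMA minus DMSO in log2 units (x axis) for each same-numbered pair of arrays, for the 35 chemokine ligand genes (y axis, in order of mean level) at 24 h (left) and 48 h (right); circles are pair 1, triangles pair 2 and squares pair 3. At 24 h the squares spread widely, with a median of -0.59, and at 48 h most points lie close to 0, with the Cxcl3 points together at 1.53 to 1.56 and both Ccl28 points above 1.

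The DMA difference at 48 h was also set against that at 24 h. No member passed (limma interaction, Benjamini-Hochberg), 0 of 35 had an unadjusted p under 0.05, and over all probes 0 were called (0.0%) and 695 (1.96%) had an unadjusted p under 0.05. The smallest unadjusted p was 0.0842, for Ccl28, with an adjusted p of 0.999.

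The values also followed the replicate number. At 48 h, deviations from the group mean on a DMA array and on the DMSO array of the same number correlated across members with r = 0.691 (n = 31 genes), 0.714 (n = 31) and 0.611 (n = 34) for numbers 1, 2 and 3. At 24 h the values were 0.632 (n = 28), 0.376 (n = 33) and 0.467 (n = 35). Pairs of different number gave -0.697 to -0.124 at 48 h and -0.591 to 0.000387 at 24 h. Over all genes the same-number values were 0.334 to 0.419 at 48 h and 0.0822 to 0.193 at 24 h. These correlations are across genes that share their arrays, and the 3 deviations of a group sum to 0, so they describe these arrays only. With the trend along probe numbers subtracted, an adjustment chosen after the values were seen, the lowest same-number value was 0.632 at 48 h and 0.342 at 24 h.

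**Figure D3:**
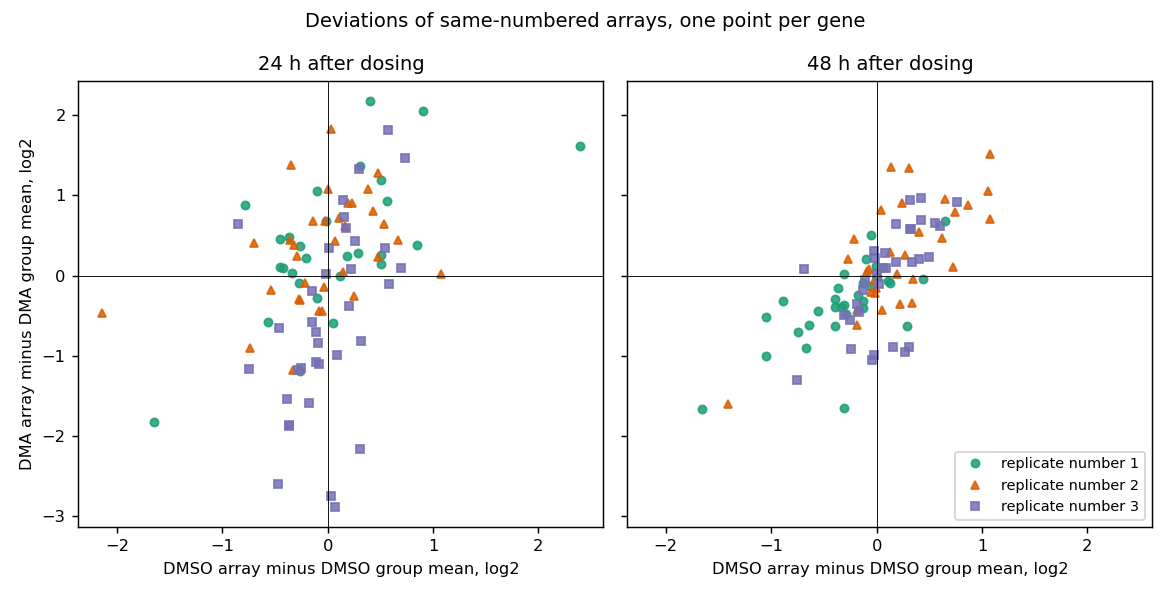
Deviation of a DMA array from its group mean (y axis, log2) against that of the DMSO array with the same replicate number (x axis, log2), 1 point per chemokine ligand gene and number, at 24 h (left) and 48 h (right). The points of each number run along the rising diagonal at 48 h (r between 0.611 and 0.714) and scatter more at 24 h (r between 0.376 and 0.632).

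DMA and DMSO arrays of the same number were closer to each other than arrays of different number in 30 of 35 members at 48 h (85.7%), against 71.8% of all genes. At 24 h this held for 22 of 35 (62.9%), against 60.6%. The median absolute difference at 48 h was 0.33 for DMA and DMSO arrays of the same number and 0.56 for those of different number. At 24 h the values were 0.75 and 0.88.

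By a criterion chosen after the values were seen, a gene followed the number where its pair means spread over more than 1 log2 unit while DMA and DMSO differed by at most 0.5 in each pair. This held for 6 of 26 members with 3 pairs at 48 h, Ccl2, Ccl5, Ccl6, Ccl7, Ccl24 and Ccl27a, against 5.29% of all genes, and for 0 of 26 at 24 h, against 1.46%. In Ccl2, Ccl5, Ccl6 and Ccl7, ligands for monocyte receptors, number 2 was the highest pair at 48 h. Ccl27a went the other way, with number 2 the lowest. Its dimmer probe did not have number 2 lowest in both treatments. That probe had 48 h values of 5.84, 6.15 and 6.73 in DMA hearts and 6.24, 6.05 and 6.22 in DMSO hearts. The Ccl24 values were highest for number 3. Pair means more than 1 log2 unit apart, whatever the treatment difference, were found for 13 of 26 members at 48 h, against 28.5% of all genes, and for 16 of 26 at 24 h, against 50.8%.

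Some neutrophil markers were highest on the same numbers. Over the 10 of 12 markers with all 6 values at a time, the mean was 5.37, 6.89 and 5.67 in DMA hearts and 5.64, 6.88 and 5.66 in DMSO hearts at 48 h. At 24 h it was 6.42, 5.63 and 5.49 in DMA hearts and 6.33, 5.66 and 5.93 in DMSO hearts. Number 2 had the highest mean at 48 h and number 1 at 24 h, as for Ccl6. In single genes, number 2 was highest in both treatments for 5 of 10 markers at 48 h (S100a8, Elane, Camp, Retnlg and Mmp8) and number 1 for 4 of 10 at 24 h (S100a9, Camp, Retnlg and Mmp8). Number 3 was highest in both treatments for Csf3r at 48 h and for Elane at 24 h, and the other markers had different highest numbers in DMA and DMSO hearts. Of 11 markers with a probe, 5 lay above the array median, among them S100a8, S100a9 and Retnlg, whereas the granule genes Mpo and Elane lay below it. Retnlg, a neutrophil-enriched resistin-like gene, had 6.55, 10.59 and 7.10 in DMA hearts and 7.31, 11.09 and 7.32 in DMSO hearts at 48 h. Neutrophil markers were not alone in this order of numbers. Over lymphatic endothelial markers with all 6 values, number 1 had the highest 24 h mean, 9.29 with DMA and 9.45 with DMSO. Number 2 had their highest 48 h mean, 10.12 with DMA and 10.06 with DMSO. At 24 h number 1 was also highest in both treatments for the endothelial, fibroblast, cardiomyocyte, and macrophage and monocyte means. At 48 h number 2 was highest in both treatments for none of those. It was, however, highest in both at 48 h for the T and NK cell means and the platelet means. For these lists number 1 was not highest in both treatments at 24 h. The part of any of these markers in the chemokine values was not tested.

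**Figure D4:**
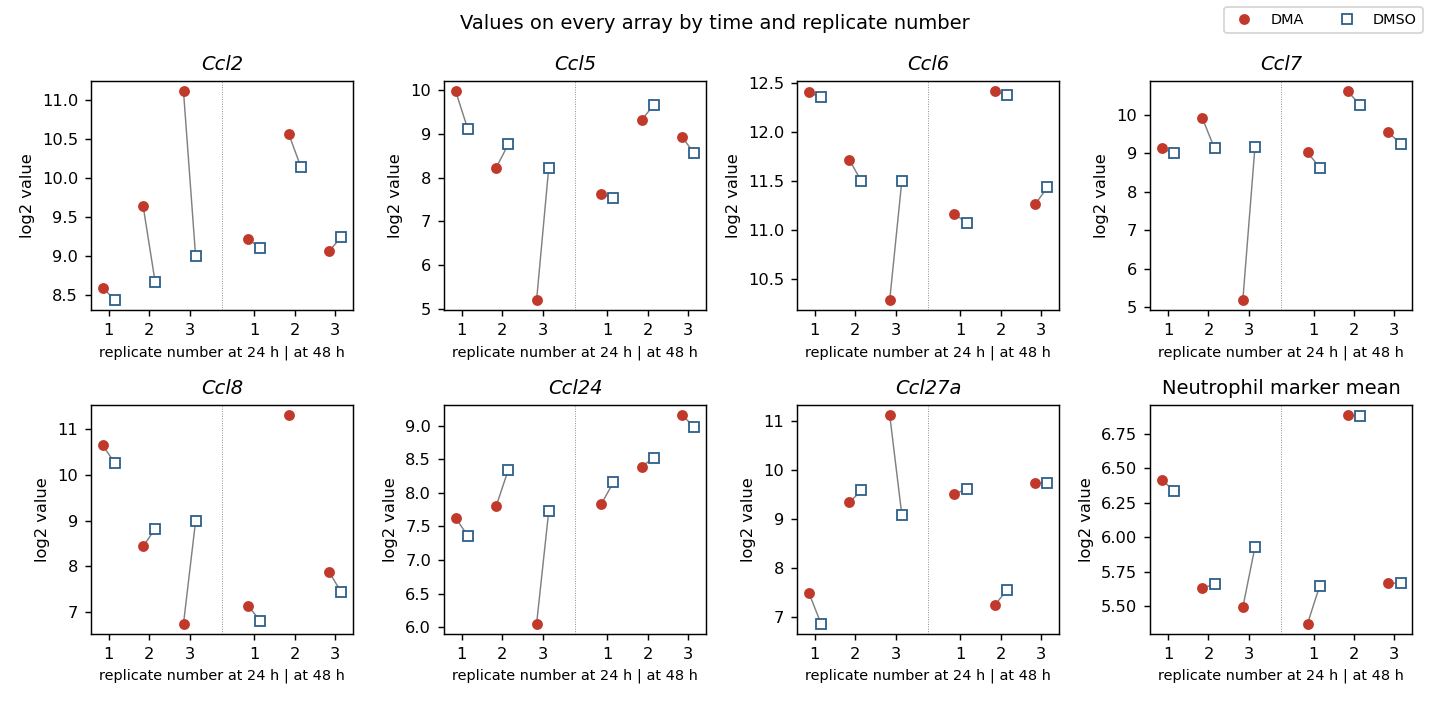
Log2 values (y axis, its range differs between panels) by replicate number at 24 h and 48 h (x axis) for 7 chemokine ligand genes and the mean of 10 neutrophil markers, with filled circles for DMA and open squares for DMSO and lines joining the pair. At 48 h DMA and DMSO of one number lie close together while numbers differ, as in Ccl6 with number 2 at 12.41 and 12.37 and the others at 11.07 to 11.43. All genes shown but Ccl8 are the 6 members picked for this pattern at 48 h, so the panels follow from that choice. Ccl8 has no DMSO value for number 2 at 48 h.

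Other markers were read the same way. Macrophage and monocyte markers (12 of 15 tested) had, over those with all 6 values, a mean of 8.66, 8.65 and 8.10 in DMA hearts and 8.61, 8.41 and 8.65 in DMSO hearts at 48 h, and T and NK cell markers (14 of 16 tested) had 5.58, 6.39 and 5.80 in DMA hearts and 5.69, 6.41 and 5.88 in DMSO hearts. Counts of markers above 0 and below 0 for DMA minus DMSO were 9 and 3 at 24 h and 5 and 7 at 48 h for macrophages, 6 and 5 then 4 and 7 for neutrophils, 9 and 5 then 7 and 7 for T and NK cells, 7 and 1 then 6 and 2 for B cells, and 2 and 6 then 2 and 6 for platelets. They were 9 and 8 then 0 and 17 for endothelial cells, 0 and 6 then 4 and 2 for lymphatic endothelium, 6 and 6 then 6 and 6 for fibroblasts, 6 and 3 then 4 and 5 for mast cells, and 4 and 3 then 2 and 5 for the 7 cardiomyocyte markers tested. Without DMA 24 h replicate 3, a setting chosen for the lists after the values were seen, the 24 h counts were 10 and 2 for macrophages, 7 and 4 for neutrophils, 8 and 6 for T and NK cells, 4 and 4 for B cells, 4 and 4 for platelets, 14 and 3 for endothelial cells, 2 and 4 for lymphatic endothelium, 10 and 2 for fibroblasts, 4 and 5 for mast cells and 6 and 1 for cardiomyocytes. No marker was called by limma at either time, and an unadjusted p under 0.05 was found for 2 T and NK cell markers, 1 endothelial and 1 mast cell marker at 24 h and for 1 B cell marker at 48 h. Over all genes the share with an unadjusted p under 0.05 was 2.82% at 24 h and 1.02% at 48 h. The 17 endothelial markers had a median of -0.37 at 48 h, in the comparison where 24 of 35 chemokine ligands were above 0. Their part in that count was not tested. Within same-numbered pairs 1, 2 and 3 at 48 h their mean difference was -0.27, -0.10 and -0.83, furthest below 0 in pair 3. The 48 h split of these markers was not recounted without DMA 48 h replicate 3.

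Of the receptors that read these ligands, 18 of 19 typical ones were tested and 6 lay above the array median, against 59.8% of all genes. They split 9 above 0 and 9 below at 24 h (median 0.14) and 7 and 11 at 48 h (median -0.11), with 0 called by limma. Limma gave an unadjusted p under 0.05 for 3 at 24 h and 1 at 48 h, against 2.82% and 1.02% of all genes. The 5 atypical receptors, which take up chemokines without signalling through G proteins, split 2 and 3 at each time, and 4 were above the median. Without DMA 24 h replicate 3 the typical receptors split 7 and 11 at 24 h (median -0.20) and the atypical ones 2 and 3. Ccr1l1, a Ccr1-like receptor gene, had the smallest p at 24 h, with 4.11, 4.88 and 3.17 in DMA hearts and 2.18, 1.79 and -0.44 in DMSO hearts. Its DMSO replicate 3 value was the lowest value of that array, shared with other probes, so it is only a bound. Its groups did not overlap, and the adjusted p in limma was 0.871. Without the array with the bound its difference was 2.06. The groups of Ccr8, Cxcr2 and Cxcr3 at 24 h and of Ccr6 at 48 h did not overlap either. Over all genes, the non-overlapping shares were 4.42% higher and 3.29% lower at 24 h, and 3.95% and 2.33% at 48 h. Ccr8, the receptor for Ccl1 and Ccl8, had 4.74, 4.07 and 3.69 in DMA hearts and 5.11, 5.88 and 5.52 in DMSO hearts, a difference of -1.34 (SE 0.43). Cxcr2, the receptor for Cxcl1, Cxcl2, Cxcl3 and Cxcl5, differed by 1.45 (SE 0.61) at 24 h and by -0.70 (SE 0.61) at 48 h, with ranges of 1.00 to 1.76 and -1.32 to -0.25 without single arrays. At 48 h Ccr6, the receptor for Ccl20, had 3.72, -0.81 and 2.85 in DMA hearts and 4.74, 3.85 and 5.0 in DMSO hearts. Its DMA replicate 2 value was likewise the lowest value of that array, and without that array the difference was -1.25. Ccr4, the receptor for Ccl17 and Ccl22, differed by 0.42 (SE 0.39), or by 0.19 to 0.65 without single arrays. Of these receptor probes, Ccr4 and Cxcr3 lay above the array median on average and the others below it.

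Related lists also gave 0 calls in limma, with 1 NF-kappaB gene and 1 interferon gamma gene at an unadjusted p under 0.05 at 24 h and 0 at 48 h. The share of all genes under that threshold was 2.82% at 24 h and 1.02% at 48 h. NF-kappaB targets and inducers (23 of 25 tested) split 16 above 0 and 7 below at 24 h (median 0.14; 9 and 14 without DMA 24 h replicate 3) and 11 and 12 at 48 h (median -0.14). The interferon gamma genes (16 of 18 tested) split 9 and 7 at 24 h (median 0.10; 13 and 3 without that array, median 0.52) and 5 and 11 at 48 h (median -0.12). The platelet chemokines Pf4 and Ppbp, whose symbols fall outside the rule, were both above the median. Pf4 differed by 0.37 (SE 0.50) at 24 h and -0.61 (SE 0.56) at 48 h, and Ppbp by -1.22 (SE 0.92) and -0.15 (SE 0.92). Ppbp was low on DMA 24 h replicate 3, and without that array both genes were above 0 at 24 h.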

How the data were processed

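The deposited table held log2 values of 36227 probes on 12 arrays; per the file header and labels it gives the authors' processed values, and the normalization and the reason for missing values are not given in the sources used here. Its medians were nearly equal within each time and differed between the times, so levels were set against the array median. Differences were fitted in R 4.3.3 with limma 3.58.1 (lmFit, eBayes, group means over all 12 arrays, two-sided, Benjamini-Hochberg over 35401 probes, threshold 0.05). A probe needed 2 values in every group, which left out 826 probes. The fit was also run on simulated data whose errors were independent between arrays. The simulation held no correlation between same-numbered arrays and no array that stood apart, so it does not cover these features of the data. The platform annotation gave 21615 probes a single gene, 681 several genes and 13931 none; all 38 member probes matched RefSeq, with 0 symbols updated.

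Genes named with all values were those above the array median, those whose groups did not overlap, the 6 of smallest p at each time, and those with 3 pairs one way and a mean difference of at least 1, plus the 3 receptors of smallest p. Members and lists were chosen with earlier results of these data known.

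Replicate numbers paired the arrays. Over all probes, deviations of same-numbered DMA and DMSO arrays correlated at 0.105 to 0.19 at 24 h and 0.276 to 0.335 at 48 h, and those of different number at -0.0981 to -0.0118 and -0.208 to -0.0926. The labels do not say what a number shares. The alternatives tried were the 6 arrays of a time alone, a replicate block, quantile normalization, a trend along probe numbers, array weights, filters on dim, missing and floor values, and each array left out. Figures used matplotlib 3.10.9.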

Additional observations from a re-analysis of the deposited data

How the results depend on the processing

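No chemokine ligand gene was called under any of the alternatives run. Probes called over the whole array ranged between 0 and 14 at 24 h when single arrays were left out (9 when DMA replicate 1 was omitted and 14 when DMA replicate 2 was), between 0 and 3 at 48 h (3 when replicate 3 of DMA was omitted at both times, and 1 each when DMA replicate 1 or DMSO replicate 2 was), and between 0 and 4 for the difference between times (4 and 1 when DMA 24 h replicate 1 or 2 was omitted). These fits leave groups in which some probes have 1 value, assumed to vary like the other groups. The replicate block changed no call, and 0 probes were called at either time. Members with an unadjusted p under 0.05 were 2 in place of 0 at 24 h and 1 in place of 1 at 48 h. Over all 35401 probes, 1540 at 24 h and 744 at 48 h had an unadjusted p under 0.05 with the block. The members' median with the block was -0.00 at 24 h and 0.12 at 48 h. At 48 h that median was 0.047 with the trend along probe numbers subtracted and 0.039 over probes with all 12 values, and it ranged between -0.046 and 0.24 without single arrays; the cause was not tested. Against the array's upper quartile, 13 members were above, in place of 23 against the median. Without single arrays the 48 h difference ranged between -0.083 and 0.84 for Ccl19 and between -1.26 and 0.063 for Ccl20, both turning sign without DMA replicate 3. At 24 h the members' split of 14 above 0 and 21 below became 10 and 25 with the trend subtracted and 21 and 14 with array weights. The number of arrays limits the precision: 3 a group gave intervals wider than 1 log2 unit on either side for most members.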

Other observations

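Ccl21, a Ccr7 ligand of lymphatic endothelium and lymphoid stroma, was read by 1 further probe that the platform ties to Ccl21a, Ccl21b and Ccl21c together, so it belongs to no single gene. That probe had 9.35, 9.01 and 9.92 in DMA hearts and 9.77, 7.88 and 7.94 in DMSO hearts at 24 h. At 48 h it had 8.82, 10.15 and 8.92 in DMA hearts and 9.03, 9.98 and 9.19 in DMSO hearts. It was thus above the array median on all 12 arrays, whereas the probe of Ccl21b alone was below it on all 12, and at 48 h replicate 2 was the highest array of both treatments.

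Probes of the same gene differed in level. Ccl27a was read at 6.86 to 11.13 by its brighter probe and at 5.35 to 6.73 by the other, with DMA minus DMSO differences at 24 h of 0.81 (SE 1.06) and -0.16 (SE 0.34). For Cx3cl1 the differences at 48 h were 0.24 (SE 0.37) and 0.15 (SE 0.43), and for Cxcl15 they were 0.16 (SE 0.59) and 0.70 (SE 0.79).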
